A study of Mus musculus with 8 samples.

Results

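DI_Npy is a subtype of dorsal inhibitory neurons in the low thoracic spinal cord of the mouse, named for neuropeptide Y. Its members are the 68 nuclei that the deposited annotation calls DI_Npy, out of 12447 nuclei in all, 4076 neuronal nuclei and 794 nuclei of the 4 dorsal inhibitory subtypes. They made up 1.67% of the neurons and were the 17th most frequent of 28 neuron subtypes. Nuclei came from wild type C57BL/6 mice and were sequenced with 10x v3 chemistry in 8 libraries. Experiment 1 sorted nuclei of 2 uninjured replicates into traced neurons, which carried GFP and project to the lumbar cord, and untraced nuclei without GFP. Experiment 2 holds 2 libraries after a hemisection, a cut through 1 side of the cord, and 1 uninjured library. Experiment 3 holds 1 library of regenerating neurons sorted by GFP. The sources used here give no sex, age or time after injury. The labels do not say that libraries came from separate animals, so p-values measure the spread between these samples, which may be technical.

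Inhibitory interneurons of the dorsal horn release GABA, glycine or both and hold back the excitatory circuits that relay touch, itch and pain. Neuropeptide Y is a peptide that some of them store in dense-core vesicles and release beside the fast transmitters. It acts on receptors coupled to inhibitory G proteins, of which the Y1 receptor is carried by excitatory interneurons of the superficial dorsal horn and the Y2 receptor by endings of sensory fibres. Most dorsal inhibitory neurons keep the transcription factor Pax2 into adult life.

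The untraced replicates 1 and 2 held 10 and 5 DI_Npy nuclei, with 88735 and 57645 unique molecular identifiers (UMIs), each a captured transcript molecule. The uninjured library held 39 nuclei with 365597 UMIs, and hemisection replicate 1 held 11 nuclei with 109914 UMIs. These 4 libraries, with 65 nuclei, passed the minimum of 5 nuclei and 20000 UMIs and carry the results on genes. Hemisection replicate 2 held 1 nucleus with 8363 UMIs, and the regenerating library held 2 nuclei with 538 UMIs between them. The traced libraries held none. The median nucleus had 6967, 10010, 8988 and 8906 UMIs in untraced replicates 1 and 2, the uninjured library and hemisection replicate 1. Of 7716 barcodes, 4 occurred in more than 1 library, and 0 of those were DI_Npy nuclei. Expression is given in CPM, the UMIs of a gene over the DI_Npy nuclei of a library scaled to a common total. Lists of 4 values below are in the order untraced replicate 1, untraced replicate 2, uninjured, hemisection replicate 1, and values described as pooled sum the nuclei of all libraries.

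Npy itself, on chromosome 6 of GRCm38 at 49822710 to 49829507 (plus strand), stood at 676, 121, 1619 and 619 CPM, from 60, 7, 592 and 68 UMIs. It was found in all 10 nuclei of untraced replicate 1, in 4 of 5, in 37 of 39 and in 8 of 11. The uninjured library was the highest and untraced replicate 2 the lowest, and a single nucleus gave 57.1% of the Npy UMIs there. The nucleus of hemisection replicate 2 and both regenerating nuclei had none. Pooled, DI_Npy was first of the 28 subtypes at 1153 CPM. Of the other dorsal inhibitory subtypes, DI_Nxph1_Npy stood at 195 and DI_Rorb at 188 CPM, levels whose ranges over libraries overlap, and DI_Pdyn_Gal at 25.01 CPM. DI_Npy held 40.5% of all Npy UMIs of neurons, and DI_Nxph1_Npy, with 291 nuclei, held 26.6%. In the single libraries DI_Nxph1_Npy had 76.6, 93.9, 257 and 86.1 CPM, all below DI_Npy. In untraced replicate 2 the 2 levels, 93.9 and 121 CPM, were close, and Npy did not reach a 2-fold ratio over DI_Nxph1_Npy in every library. The uninjured library gave 592 of the 727 Npy UMIs of DI_Npy. Since the subtype carries the name of the gene, this order is a description and was not tested.

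**Figure D1:**
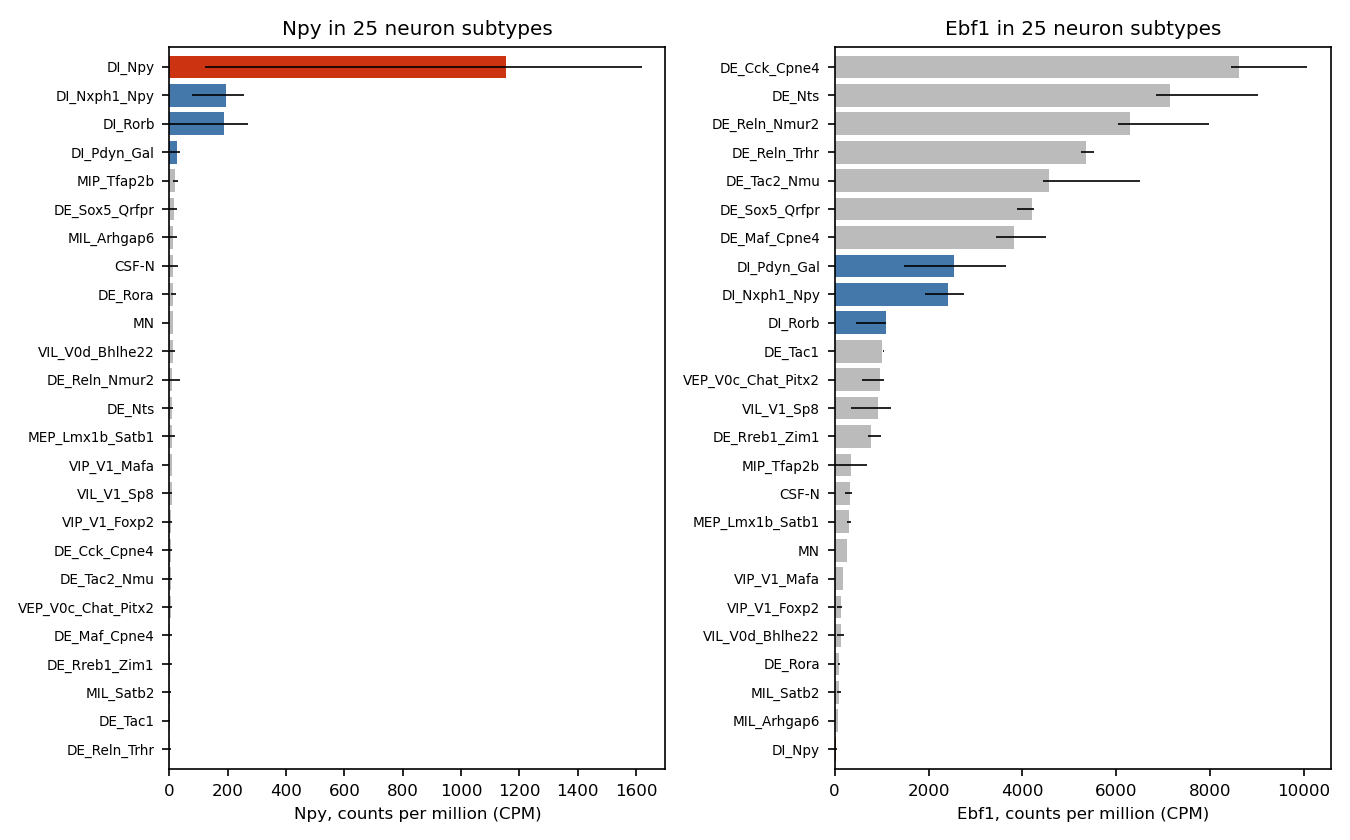
Npy and Ebf1 in CPM in 25 of the 28 neuron subtypes. Bars are pooled over libraries and lines span the lowest and highest library with enough nuclei, with DI_Npy in red and the other dorsal inhibitory subtypes in blue. DI_Npy was first for Npy at 1153 CPM and last for Ebf1 at 28.5 CPM.

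An Npy UMI was present in 59 of 68 DI_Npy nuclei, a share of 86.8% (95% exact binomial interval 76.4 to 93.8). It was present in 45.4% of DI_Nxph1_Npy nuclei, at median depths of 8638 and 8386 UMIs per nucleus. In the excitatory subtype DE_Maf_Cpne4, with a median of 7275 UMIs, the share was 2.87%. In oligodendrocytes, which should lack the peptide, it was 3.599% at a median of 3072 UMIs. Of the 208 oligodendrocytes with an Npy UMI, 187 came from the uninjured library, where the share was 5.91%. It was 1.27% and 0.192% in untraced replicates 1 and 2 and 1.61% and 0.392% in hemisection replicates 1 and 2. After thinning every nucleus to 2000 UMIs, the shares were 60.6% in DI_Npy, 24.2% in DI_Nxph1_Npy and 0.87% in DE_Maf_Cpne4. Intervals of this kind cover counting error only. Within DI_Npy the UMIs per nucleus had a median of 5, 1, 12 and 5 and a maximum of 16, 4, 66 and 25.

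Genes of inhibitory identity are a description here, since the annotation was built from the same nuclei and genes. Gad1, which encodes a GABA-synthesising enzyme, stood at 124, 156, 145 and 109 CPM, against 59.7, 38.3, 50.6 and 59.9 CPM in all other neurons. Gad2, which encodes the other such enzyme, stood at 248, 278, 238 and 209 CPM and was the third of 28 when pooled. All 4 libraries lay above the other neurons for both genes, and 63 of the 65 nuclei had a UMI of at least one of them. Slc32a1, which encodes the vesicular transporter of GABA and glycine, varied more, at 124, 34.7, 230 and 9.10 CPM. The last value is a single UMI. Slc32a1 in all other neurons stood at 54.7, 31.1, 149 and 20.4 CPM, with the same library highest and the same library lowest. For this gene DI_Npy lay below the other neurons in hemisection replicate 1 and close to them in untraced replicate 2. Slc6a5, which encodes the glycine transporter of glycinergic neurons, had 33.8, 121, 134 and 109 CPM. Slc17a6, the vesicular glutamate transporter of excitatory cord neurons, had 6 UMIs in 5 nuclei, all in the uninjured library, or 9.51 CPM pooled against 141 CPM in other neurons.

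Markers of other cells were low but not absent. The 7 oligodendrocyte markers summed to 338, 156, 878 and 54.6 CPM in DI_Npy and to 220, 254, 728 and 79.4 CPM in the other neurons of the same libraries, and 3, 3, 0 and 4 of them were at 0 in DI_Npy. The 5 astrocyte markers summed to 22.5, 17.4, 107 and 0 CPM and the 6 microglia markers to 22.5, 0, 76.6 and 91.0 CPM. The uninjured library was highest for the oligodendrocyte and astrocyte lists. The 4 motor neuron markers summed to 0, 0, 5.47 and 0 CPM.

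Among transcription factors, DI_Npy combined high Pax2 with almost no Ebf1. Pax2 stood at 473, 625, 449 and 373 CPM, first of 28 subtypes at 450 CPM pooled, and was found in 60 of 68 nuclei. DI_Pdyn_Gal was the next at 337 CPM pooled, and its libraries, from 283 to 520 CPM, overlap those of DI_Npy. DI_Nxph1_Npy had 157, 93.9, 157 and 385 CPM of Pax2, below DI_Npy in 3 libraries and level with it after hemisection. Pax8, a relative of Pax2, was second of 28 at 192 CPM pooled. Ebf1, a helix-loop-helix factor on chromosome 11 at 44617317 to 45008091 (plus strand), had 0, 0, 17 and 1 UMIs. These give 0, 0, 46.5 and 9.10 CPM, where DI_Nxph1_Npy had 2745, 1934, 2557 and 1965 CPM. DI_Npy was last of 28 subtypes for Ebf1, and the next lowest, MIL_Arhgap6, had 74.0 CPM. Ebf2, a paralog, had 0, 0, 2 and 0 UMIs against 690, 875, 580 and 781 CPM in all other neurons.

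Zfhx3, a zinc finger and homeodomain factor, set DI_Npy apart from the other dorsal inhibitory subtypes. It stood at 552, 971, 840 and 473 CPM, the fifth of 28 at 750 CPM pooled. The other 3 dorsal inhibitory subtypes held ranks 26 to 28, at 32.2, 29.8 and 17.4 CPM. Rorb, an orphan nuclear receptor gene that names another dorsal inhibitory subtype, had 0, 0, 1 and 1 UMIs in DI_Npy against 416 CPM pooled in DI_Nxph1_Npy. Sall3, a zinc finger factor, had 1 UMI in the 65 nuclei, where DI_Nxph1_Npy had 238, 263, 154 and 163 CPM.

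Beside the full transcriptome of DI_Nxph1_Npy, 99 of 7596 genes (1.3%) were at least 2-fold higher in DI_Npy in each of the 4 libraries and 150 (1.97%) at least 2-fold lower. The ratio is the log2 ratio of CPM plus 5, taken within each library. No test was run, because the annotation was built from the same nuclei and genes. The shares over all genes are the reference for the counts of list members given below, and no list was tested against them. The median over all 7596 genes was 0.02. Against all other neurons, 48 of 7653 genes (0.627%) were higher and 213 (2.78%) lower, with a median over all genes of −0.06. The closest mean profile among subtypes was still that of DI_Nxph1_Npy, with a Pearson correlation of 0.21 across 6554 genes centred over subtypes. MIL_Arhgap6 had 0.18, DI_Pdyn_Gal 0.17 and DI_Rorb 0.01, and the lowest was DE_Maf_Cpne4 at −0.25. These correlations run across genes that share libraries and are no test.

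**Figure D2:**
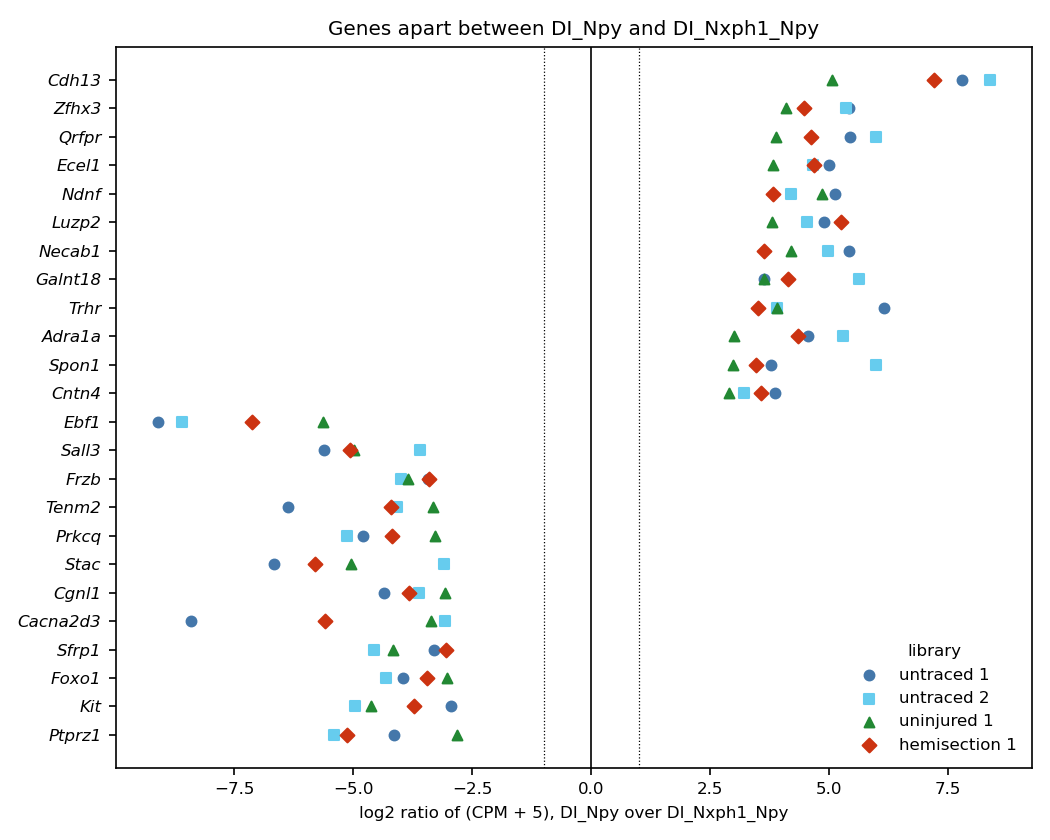
Log2 ratio of CPM plus 5 of DI_Npy over DI_Nxph1_Npy for the 12 higher and 12 lower genes named by rule, 1 point per library. Dotted lines mark the 2-fold bounds, and the points of Cdh13 lie between 5.06 and 8.38 and those of Ebf1 between −9.10 and −5.64.

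Qrfpr encodes the receptor of the peptide QRFP. It stood at 563, 312, 167 and 164 CPM in DI_Npy and at 8.06, 0, 6.66 and 1.83 CPM in DI_Nxph1_Npy. DI_Npy was first of 28 subtypes for Qrfpr at 233 CPM pooled, ahead of DE_Sox5_Qrfpr at 108 CPM. All 18 Qrfpr UMIs of untraced replicate 2 came from 1 nucleus. Trhr encodes the receptor of thyrotropin-releasing hormone. It stood at 349, 69.4, 129 and 72.8 CPM and was second of 28 after DE_Reln_Trhr, which had 625 CPM. It was seen in all 10 nuclei of untraced replicate 1 but in 1 of 5, 16 of 39 and 5 of 11 nuclei of the other libraries. Adra1a, which encodes the alpha-1A adrenergic receptor, stood at 113, 191, 131 and 246 CPM against 0, 0, 11.97 and 7.32 CPM in DI_Nxph1_Npy. On the list of 23 opioid and peptide receptors, 10 passed the minimum of 20 CPM, and Trhr alone was 2-fold higher in every library and none lower, with a list median of 0.96.

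The receptors of neuropeptide Y were nearly absent from DI_Npy. Npy1r and Npy2r had 4 UMIs each, or 6.34 CPM pooled, and Npy5r had 5 UMIs. Npy1r was highest in the excitatory subtype DE_Cck_Cpne4 at 168 CPM. Npy2r was highest in DI_Nxph1_Npy at 31.0 CPM, and DI_Npy was the fifth. Of the NPY signalling list, 2 of 7 members passed the minimum beside DI_Nxph1_Npy, and Npy2r was lower in all 4 libraries.

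Ecel1 and Ndnf, which encode a membrane endopeptidase induced in injured neurons and a secreted neurotrophic factor, were highest in DI_Npy among all subtypes. Ecel1, on chromosome 1 at 87147655 to 87156521 (minus strand), stood at 282, 121, 347 and 218 CPM, 295 CPM pooled, where the next subtype had 156 CPM. It was found in 56 of 68 nuclei and stood at 7.58, 13.2, 19.9 and 14.9 CPM in all other neurons. It was at this level in uninjured nuclei and not only after hemisection. Ndnf stood at 169, 86.7, 159 and 91.0 CPM, 140 CPM pooled, ahead of the next subtype at 82.0 CPM. On the list of 25 regeneration-associated genes, 14 passed the minimum against all other neurons. Npy and Ecel1 were higher and Gal was lower, with a list median of −0.05. Npy names the subtype, so its higher level follows from the label and leaves Ecel1 as the other higher member. Over all genes 0.627% were higher and 2.78% lower.

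Other peptides were sparse or uneven. Gal, which encodes galanin, had 0 UMIs in the 68 nuclei, and Pdyn, which encodes prodynorphin, had 3. Tac1, the substance P precursor, had 2. Penk, which encodes proenkephalin, stood at 665, 17.3, 148 and 18.2 CPM from 59, 1, 54 and 2 UMIs, so it was high in 1 untraced library and low in the other. Pnoc, the nociceptin precursor, stood at 135, 52.0, 98.5 and 54.6 CPM, above all other neurons in each library. Sst, the somatostatin precursor, was seen in the uninjured library at 101 CPM and at 0 in the other 3. Nxph1, which encodes a secreted ligand of neurexins, stood at 203, 520, 925 and 464 CPM, far below the 4733, 5127, 3981 and 4003 CPM in the subtype named for it. On the list of 11 dorsal inhibitory peptides, 6 passed the minimum beside DI_Nxph1_Npy, Nxph1 alone was lower, none was higher, and the list median was 0.19. For peptide processing, Pcsk2, which encodes prohormone convertase 2, stood at 293, 173, 145 and 72.8 CPM against 782, 751, 985 and 872 CPM in DI_Nxph1_Npy. It was the only one of 12 such genes at least 2-fold apart in all libraries, and the list median was −0.14. Cadps2, a priming factor of dense-core vesicles, was at 902, 382, 334 and 382 CPM against 123, 139, 107 and 128 CPM in all other neurons. DI_Nxph1_Npy had 274, 1164, 289 and 377 CPM of Cadps2, so this gene did not separate the pair of subtypes in one direction.

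The receptors for glutamate and GABA differed in subunits. Grik3, which encodes the kainate receptor subunit GluK3, stood at 687, 1076, 643 and 819 CPM. DI_Npy was first of 28 for Grik3 at 717 CPM pooled, the next subtype had 312 CPM, and 65 of 68 nuclei had a UMI. Grik2, a second kainate subunit gene, went the other way at 1093, 937, 1132 and 2002 CPM against 5426, 6873, 3994 and 4147 CPM in DI_Nxph1_Npy. Grik1, of the same family, had 0, 0, 43.8 and 100 CPM. Grin2a, which encodes the NMDA receptor subunit GluN2A, stood at 78.9, 312, 164 and 482 CPM against 1302, 1052, 1357 and 1111 CPM. On the list of 24 glutamate receptor genes, 22 passed, 1 was higher and 3 were lower, with a list median of −0.19. Gabra2, which encodes the alpha2 subunit of the GABA-A receptor, stood at 428, 278, 386 and 428 CPM against 105, 75.1, 63.9 and 106 CPM. Gabrg1, a gamma subunit gene, was also higher and Gabbr2, a GABA-B receptor gene, lower among 18 inhibitory receptor genes that passed, with a list median of −0.19. Of 27 potassium channel genes that passed, Kcnb2 and Kcnh1 were lower and none higher, with a list median of −0.30.

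Some adhesion and guidance genes differed, in both directions, with 46 of 49 list members passing, 5 higher, 8 lower and a list median of −0.04. Over all genes 1.3% were higher and 1.97% lower. Cdh13, which encodes T-cadherin, stood at 1093, 1665, 1157 and 2602 CPM, where DI_Nxph1_Npy had 0, 0, 29.9 and 12.8 CPM. DI_Nxph1_Npy was last of 28 for Cdh13 and DI_Npy was the third, at 1458 CPM pooled. Cntn4, which encodes contactin 4, stood at 3234, 1249, 1808 and 4676 CPM against 218, 131, 238 and 392 CPM. Cntn6, Sema5a and Slit3 were the other higher members. Tenm2, which encodes a teneurin that binds latrophilins across the synapse, stood at 45.1, 364, 462 and 264 CPM against 4140, 6253, 4639 and 4955 CPM. Dcc, which encodes a netrin receptor, stood at 0, 468, 216 and 118 CPM against 1673, 1746, 1088 and 1857 CPM. Nxph1, Lrrtm4, Lrrc4c, Cdh12, Robo2 and Epha4 were the other lower members.

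The remaining genes named by rule span signalling and secreted proteins. Necab1, which encodes a neuronal calcium-binding protein, stood at 902, 746, 525 and 509 CPM against 16.1, 18.8, 23.9 and 36.6 CPM in DI_Nxph1_Npy. Luzp2, Galnt18 and Spon1, the last encoding the matrix protein F-spondin, had median log2 ratios of 4.71, 3.88 and 3.62. On the lower side, Frzb and Sfrp1 encode secreted Wnt antagonists and had median log2 ratios of −3.63 and −3.73. Kit, a receptor tyrosine kinase gene, had −4.17, the phosphatase gene Ptprz1 had −4.64 and the calcium channel subunit gene Cacna2d3 had −4.48. Prkcq, Stac, Cgnl1 and Foxo1 had −4.49, −5.42, −3.72 and −3.70. Against all other neurons, Plch1, which encodes phospholipase C eta 1, stood at 586, 330, 449 and 782 CPM, first of 28 at 514 CPM pooled. The transcriptional corepressor gene Tle4 had a median log2 ratio of 2.07 there. The lower genes Pde11a, Pde3a, Cacna2d1, Tafa1, Tmem163 and Sox5 had −6.11, −3.88, −5.69, −7.07, −5.36 and −5.64.

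The 65 nuclei were not uniform. Kirrel3, which encodes an adhesion protein of the immunoglobulin superfamily and lies on chromosome 9 at 34485894 to 35036716 (plus strand), stood at 3787, 6072, 2618 and 655 CPM. Of these nuclei 28 had 14 or more Kirrel3 UMIs, 37 had 5 or fewer, 23 of them none, and 0 lay between. This division, at 10 UMIs, was chosen after the values were seen, so it is a description with no test. The median depth was 10489 UMIs per nucleus in the high and 7666 in the low set. In DI_Nxph1_Npy 68 of 291 nuclei had 6 to 13 Kirrel3 UMIs, and in DI_Pdyn_Gal 71 of 293. High nuclei made up 5 of 10 in untraced replicate 1, 2 of 5 in untraced replicate 2 and 20 of 39 in the uninjured library. They made up 1 of 11 in hemisection replicate 1, a share of 9.09% (95% exact binomial interval 0.230 to 41.3), beside 43.1% (30.8 to 56.0) over all 65 nuclei. Both sets were inhibitory, with a Gad1 or Gad2 UMI in 28 of 28 high and 35 of 37 low nuclei.

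**Figure D3:**
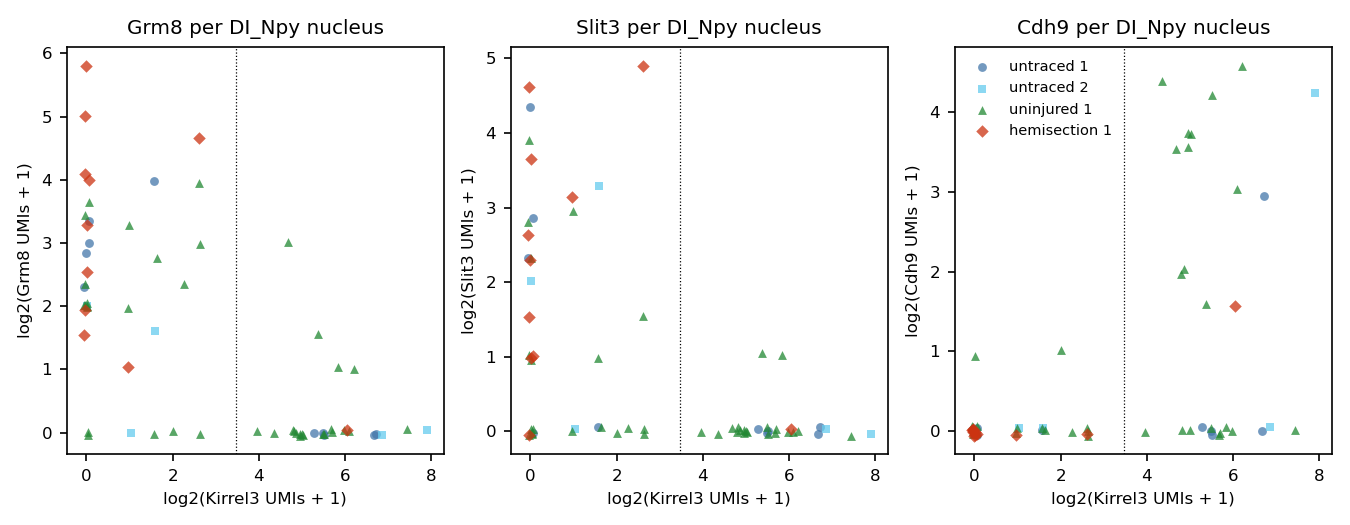
UMIs of Grm8, Slit3 and Cdh9 against those of Kirrel3 in each of the 65 DI_Npy nuclei, on log2 axes with a pseudocount of 1 and slight jitter, coloured by library. The dotted line marks 10 Kirrel3 UMIs, with 37 nuclei to its left and 28 to its right, and 1 of the 11 nuclei of hemisection replicate 1 lies to the right.

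Other genes divided along with Kirrel3. In high nuclei, Penk had 114 UMIs and Cdh9, which encodes a classical cadherin, had 149, against 2 each in low nuclei. Penk and Cdh9 were each found in only part of the high nuclei. Most high nuclei with a UMI of either gene had none of the other, so these totals do not describe a uniform set. Qrfpr had 121 UMIs in high and 26 in low nuclei, and Zfhx3 had 349 and 115. In low nuclei Grm8, which encodes the metabotropic glutamate receptor mGlu8, had 288 UMIs against 11 in high nuclei. Slit3, a ligand of Robo receptors, had 164 against 2, and Cartpt, the precursor of CART peptides, had 46 against 2. Npy was present in both sets and lower in high nuclei in every library. It stood at 586, 54.3, 820 and 0 CPM in high nuclei and at 820, 240, 2681 and 728 CPM in low nuclei, the 0 being a single nucleus.

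Over the 2 libraries with at least 5 nuclei of each set, untraced replicate 1 and the uninjured library, 31 of 4846 genes (0.64%) were at least 4-fold higher in high nuclei in both and 41 (0.846%) at least 4-fold lower. Kirrel3 set the division and meets the rule for higher genes by construction, so these counts are a description with no test. The values of untraced replicate 1 rest on 5 nuclei of each set. Apart from Kirrel3, the higher genes include Vgf, a neuropeptide precursor, and the channel gene Kcna6. Kcna6 rests on few counts, 4 and 11 UMIs in the high nuclei of untraced replicate 1 and the uninjured library against 0 in low nuclei. Pnoc stood at 0 and 9.59 CPM in high and at 351 and 217 CPM in low nuclei of untraced replicate 1 and the uninjured library. Gpc5, which encodes a glypican, stood at 128 and 211 CPM in high and at 3776 and 1726 CPM in low nuclei. Trpm3, a cation channel gene, stood at 311 and 297 CPM against 3572 and 2095 CPM. Gbx1, a homeobox gene of dorsal inhibitory neurons, was at 0 in the high nuclei of both libraries. It was at 117 and 63.7 CPM in the low ones, from only 4 and 10 UMIs.

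The comparison of traced with untraced nuclei asked whether DI_Npy neurons project to the lumbar cord. No DI_Npy nucleus was found among the 80 and 25 traced neurons, which allows shares of up to 3.75% and 12%, or 2.86% over all 105. These limits set 3 nuclei over the number of neurons. The upper ends of 95% exact binomial intervals, as used for the untraced shares, were 4.51% and 13.7% in traced replicates 1 and 2. Among untraced neurons DI_Npy made up 10 of 354, or 2.82% (95% exact binomial interval 1.36 to 5.13), and 5 of 123, or 4.07% (1.33 to 9.23). Both untraced intervals reach below the 2.86% that 0 of 105 allows. In the edgeR quasi-likelihood test on nuclei per subtype, 0 of 28 subtypes were called (0%), and DI_Npy had an adjusted p of 0.0955 and an unadjusted p of 0.0164. With the replicate number as a block, the adjusted p was 0.193. The sort on GFP can set these shares.

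After hemisection DI_Npy made up 11 of 1000 neurons, or 1.10% (0.55 to 1.96), in replicate 1 and 1 of 108, or 0.926% (0.0234 to 5.05), in replicate 2. In the uninjured library it made up 39 of 2148, or 1.82% (1.29 to 2.47). The intervals overlap. The log2 difference in share was −0.74 with a standard error of 0.35 (adjusted p = 0.376, edgeR quasi-likelihood test), while 1 of 28 subtypes was called (3.57%), and it was not DI_Npy. With the untraced libraries as reference, the log2 difference was −1.54 (unadjusted p = 0.0136, adjusted p = 0.127, edgeR). The regenerating library held 2 of 238, or 0.840% (0.102 to 3.00), in nuclei with a median of 269 UMIs.

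**Figure D4:**
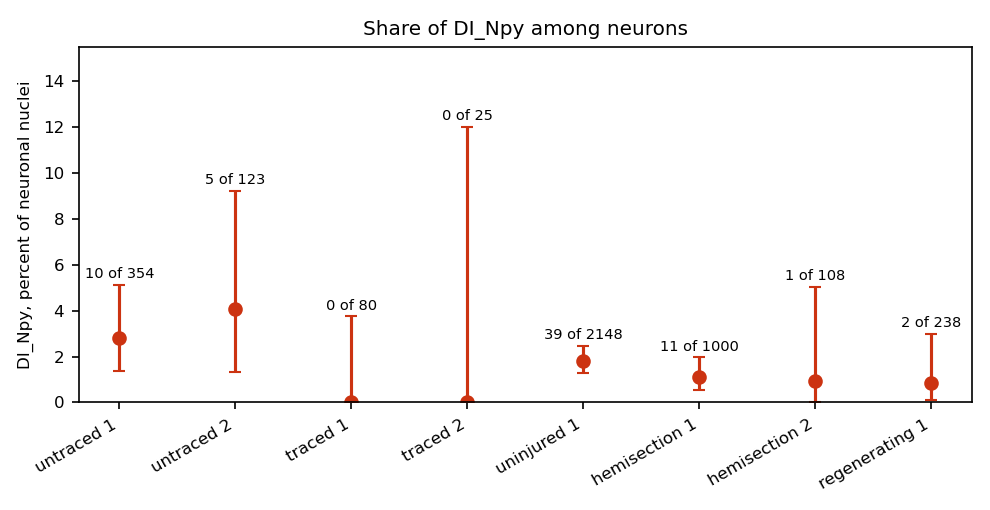
DI_Npy as a percentage of neuronal nuclei in each of the 8 libraries, with the numbers of nuclei above. Lines are 95% exact binomial intervals, or for the traced libraries the upper limit that 0 nuclei allow, and the shares range from 0 to 4.07%. The exact intervals of traced replicates 1 and 2 end at 4.51% and 13.7%.

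The hemisection comparison within DI_Npy asked which genes differ after injury. It rests on 11 nuclei of hemisection replicate 1 against 39 of the uninjured library. The untraced pair gives the spread, with 1 residual degree of freedom. Neurons made up 89.6% of all nuclei in hemisection replicate 1 and 32.4% in the uninjured library. They made up 18.3% and 13.9% in untraced replicates 1 and 2 and 7.15% in hemisection replicate 2. Whether this unlike make-up of the libraries has a part in the differences was not tested. Neither group of the contrast has a second library over the minimum, and both are assumed to vary like the untraced pair. Among 3126 genes, the edgeR quasi-likelihood test called 7 lower (0.224%) and 0 higher (0%), with 128 genes at an unadjusted p under 0.05. DESeq2 called 0, with 22 at an unadjusted p under 0.05, and 0 were called when the single nucleus of hemisection replicate 2 was added. The median log2 fold change of all genes was −0.02.

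mt-Co2, mt-Atp6, mt-Nd2 and Cd81 are given first, each beside its level in all other neurons. mt-Co2, a mitochondrially encoded subunit of cytochrome oxidase, stood at 124, 0, 506 and 0 CPM in DI_Npy, at least 18.5-fold lower after hemisection against a floor of 3 counts (adjusted p = 0.000176, edgeR). In all other neurons it stood at 107, 93.3, 630 and 77.8 CPM. mt-Atp6, which encodes an ATP synthase subunit, stood at 101, 0, 646 and 27.3 CPM. Its uninjured level was 23.7 times the hemisection level (95% counting interval 7.99 to 116; edgeR adjusted p = 0.0121). Other neurons had 98.8, 82.5, 815 and 64.7 CPM of it. The uninjured library stood above the other 3 in both populations, the untraced libraries of uninjured tissue included.

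mt-Nd2, a subunit gene of respiratory complex I, had 11.3, 17.3, 367 and 27.3 CPM (adjusted p = 0.028, edgeR) beside 52.9, 32.3, 407 and 32.0 CPM in other neurons. Cd81, which encodes a tetraspanin, had 147, 17.3, 295 and 18.2 CPM (edgeR adjusted p = 0.028), beside 93.0, 34.7, 206 and 34.7 CPM in other neurons. The ratios of the uninjured to the hemisection level were 13.4 (4.50 to 65.9) for mt-Nd2 and 16.2 (4.39 to 136) for Cd81. As with the first 2 genes, the uninjured library was the highest in both populations, and whether library preparation has a part in these values was not tested.

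The other 2 genes encode cadherins. Cdh9, on chromosome 15 at 16728756 to 16857094 (plus strand), stood at 78.9, 312, 339 and 18.2 CPM. The uninjured level was 18.6 times the hemisection level (95% counting interval 5.05 to 156; edgeR adjusted p = 0.0453). Other neurons had 40.9, 50.2, 52.3 and 49.9 CPM, a narrow range in which the uninjured library was again the highest. In nuclei low in Kirrel3, Cdh9 stood at 0, 0, 12.7 and 0 CPM, and 10 of the 11 hemisection nuclei were of that kind. Cdh23, which encodes a long cadherin known from hair cells, is on chromosome 10 at 60302748 to 60696490 (minus strand) and stood at 0, 746, 148 and 0 CPM. It was at least 5.41-fold lower than in the uninjured library (edgeR adjusted p = 0.0453), although untraced replicate 1 was also at 0 and 1 nucleus gave 34 of the 43 UMIs of untraced replicate 2.

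**Figure D5:**
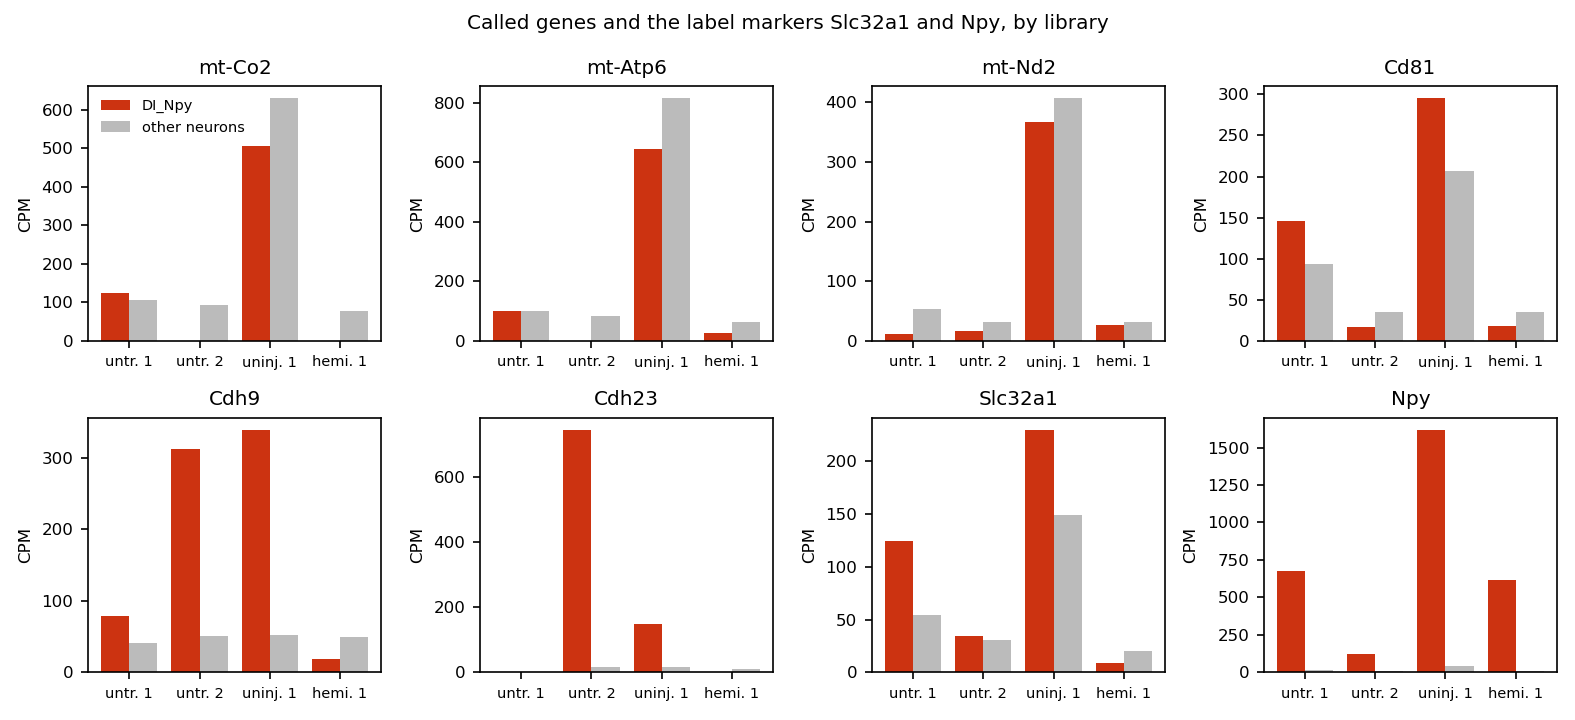
CPM of 6 genes called after hemisection, and of Slc32a1 and Npy, in DI_Npy (red) and all other neurons (grey) of untraced replicates 1 and 2, the uninjured library and hemisection replicate 1. For mt-Co2 the uninjured library was highest in both populations, at 506 and 630 CPM, while Cdh9 in other neurons lay between 40.9 and 52.3 CPM.

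The markers of the label were not called. Npy in all other neurons stood at 12.9, 10.8, 44.8 and 8.96 CPM, with the uninjured library the highest there as well. In DI_Npy its hemisection level of 619 CPM lay between the 2 untraced levels. Its log2 fold change in DI_Npy was −1.39 with a standard error of 0.85. Gad1 had −0.41 (edgeR adjusted p = 0.999). Slc32a1, with 1 UMI after hemisection, had an uninjured level 25.3 times the hemisection level (95% counting interval 4.41 to 1010; edgeR adjusted p = 0.0541), and it was called when library totals replaced TMM scaling (adjusted p = 0.0431). By list, all 9 mitochondrially encoded genes tested had negative fold changes, with a median of −3.71. Over all 3126 genes tested, 1609 fold changes were negative, with a median of −0.02. For mt-Co2, mt-Atp6 and mt-Nd2 the uninjured library was also the highest in all other neurons. The 9 tested chaperone and heat shock genes had a median of −1.96, the 4 cholesterol synthesis genes −2.28 and the 6 dorsal inhibitory peptides −1.19, with none called. The 19 tested glutamate receptor genes had a median of 0.28 and the 7 regeneration-associated genes 0.15, with none called.

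The untraced libraries gave a further uninjured reference, which shares the hemisection library with the comparison above and crosses experiments. Of 3126 genes 1 was called lower (0.032%) and 0 higher (0%), with 94 at an unadjusted p under 0.05, while DESeq2 called 0, with 29 at that p. The gene was Cdh23, at least 10.8-fold lower over the pair (edgeR adjusted p = 0.00226). All 43 UMIs behind this bound came from untraced replicate 2, 34 of them from 1 nucleus, and untraced replicate 1 was at 0 like the hemisection library, so no fold can be given without untraced replicate 2. Without the uninjured library in the fit, 2 genes were called, Cdh23 and Penk. Npy had a log2 fold change of 0.70 with a standard error of 0.74 (edgeR adjusted p = 1), the opposite sign to that against the uninjured library. The 9 mitochondrially encoded genes had a median of −0.30, 4 positive and 5 negative, and the median of all genes was −0.09. The chaperone and heat shock genes had a median of −0.08, with 3 positive and 6 negative, where it was −1.96 against the uninjured library. The dorsal inhibitory peptides had −0.33 in place of −1.19. The 4 cholesterol synthesis genes stayed low at −2.40, all negative.

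A test of the difference asked whether the hemisection effect in DI_Npy differed from that in other cells of the same libraries. These fits also have 1 residual degree of freedom. They set 1 hemisection library against 1 uninjured library, with the spread taken from the untraced pair. Beside DI_Nxph1_Npy, edgeR called 0 of 5873 genes (0%), with 101 at an unadjusted p under 0.05. With the uninjured and untraced libraries taken as 1 reference group, 3 were called. Beside all other neurons, 4 of 10539 genes were called, 2 higher (0.019%) and 2 lower (0.019%), with 281 at an unadjusted p under 0.05. The median difference over all genes was −0.18. mt-Co2, mt-Atp6, mt-Nd2 and Cd81 were not among the 4.

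Slit3 stood at 327, 208, 104 and 792 CPM in DI_Npy and at 96.8, 294, 170 and 78.2 CPM in other neurons. The difference between the 2 hemisection effects was 4.06 in log2 units with a standard error of 0.68 (edgeR adjusted p = 2.47e-05). Hemisection replicate 1 was the highest of the 4 for DI_Npy and the lowest for other neurons. In nuclei low in Kirrel3, Slit3 stood at 849, 577, 229 and 931 CPM. There hemisection replicate 1 was close to untraced replicate 1, and the uninjured library was the lowest. Few nuclei carry these values. Single low nuclei gave 30 and 24 Slit3 UMIs in hemisection replicate 1, and a single one gave 19 in untraced replicate 1. Within DI_Npy alone, the log2 fold change of Slit3 was 2.92 and not called (edgeR adjusted p = 0.129).

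Cartpt stood at 135, 0, 35.6 and 209 CPM in DI_Npy and at 6.43, 5.98, 45.7 and 12.7 CPM in other neurons, a difference of 4.41 with a standard error of 0.80 (edgeR adjusted p = 0.000204). In nuclei low in Kirrel3 it stood at 351, 0, 70.1 and 246 CPM, with untraced replicate 1 the highest. Cdh9 had a difference of −4.15 (edgeR adjusted p = 0.0253). Pcsk5, which encodes a proprotein convertase, had 0, 2, 52 and 0 UMIs in DI_Npy, the 52 in 11 nuclei, against 237, 177, 182 and 250 CPM in other neurons (edgeR adjusted p = 0.0166). It was at least 5.21-fold lower in DI_Npy after hemisection than in the uninjured library, and untraced replicate 1 was at 0 as well. Grm8 stood at 462, 86.7, 260 and 1437 CPM and was not called within DI_Npy (log2 fold change 2.46, edgeR adjusted p = 0.588). In nuclei low in Kirrel3 it stood at 1200, 240, 535 and 1691 CPM. The mixture of nuclei high and low in Kirrel3 differed between the libraries beside each of these genes, and its part in the differences was not tested.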

How the data were processed

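The authors deposited 1 matrix of raw UMI counts for 19787 genes and 12447 nuclei with an annotation of library, class and subtype, whose names were used as deposited. The tools were Cell Ranger 4.0.0 and Seurat 3 and the builds mm10 and GRCm38, per the submitters' processing notes. The sources used here give no filters, doublet removal or annotation method, and no further filter or doublet caller was applied. No column was left without a library (0 found). Groups came from sample titles, whose numbers pair the traced and untraced fractions of experiment 1, since each number names the same uninjured replicate.

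Counts were summed over DI_Npy nuclei per library, for libraries with at least 5 nuclei and 20000 UMIs, and tested with edgeR 4.0.16 in R 4.3.3 (TMM, filterByExpr, glmQLFit and glmQLFTest, Benjamini-Hochberg adjusted p under 0.05 over all genes tested), with a coefficient per group. Differences between populations used an interaction with the library as a block. Numbers of nuclei were tested in the same way over 28 subtypes with neuron totals as offset. DESeq2 1.42.0 was an alternative, as were other scaling, filters, thinning to 2000 UMIs and sets of libraries. Subtypes were compared without a test, as the log2 ratio of CPM plus 5 per library for genes of at least 20 CPM in the higher subtype. A group at 0 was set against a floor of 3 counts, and a group of 1 to 3 counts is given as a CPM ratio with a 95% exact interval. The tests were tested on simulated data.

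Named genes are the 12 highest and 12 lowest against DI_Nxph1_Npy and the 8 and 8 against all other neurons by their smallest ratio over libraries, called genes or else those with the smallest p, and members of 27 lists by role, of which 4 genes are not in the matrix. Members, lists and rules were chosen with earlier results of these data known. Kirrel3 and the genes dividing with it, Rorb and Npy5r among others, were chosen after their values were seen. A few subtypes and genes, 1 of those called after hemisection included, are not reported here. Coordinates come from GENCODE annotation of GRCm38.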

Additional observations from a re-analysis of the deposited data

Results flagged for a closer look

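For 4 genes the hemisection effect in DI_Npy differed from that in all other neurons by a test of the difference itself, the interaction in edgeR's quasi-likelihood test with the library as a block. The differences in log2 units were 4.06 for Slit3, 4.41 for Cartpt, −4.15 for Cdh9 and −12.66 for Pcsk5. The fitted value of Pcsk5 depends on the prior count, since hemisection replicate 1 and untraced replicate 1 had 0 UMIs. Each rests on the 11 DI_Npy nuclei of hemisection replicate 1, and 10 of those had 5 or fewer Kirrel3 UMIs. The fit has 1 residual degree of freedom, with the spread taken from the untraced pair. No second hemisection or uninjured library replicates the differences in it. With the nucleus of hemisection replicate 2 added, Cartpt alone was called.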

How the results depend on the processing

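Against the uninjured library, the 7 genes called became 0 with DESeq2, 3 with no filter on low counts, 0 with nuclei thinned to 2000 UMIs and 0 with hemisection replicate 2 added. Library totals in place of TMM gave 8, the 7 among them. Against the untraced libraries, the 1 call became 0 with DESeq2, with thinned nuclei and with hemisection replicate 2 added, and there the fold change of Npy turned from 0.70 to −0.0233. Thinning left 598 genes to test. For the interaction with DI_Nxph1_Npy, 0 calls became 3 with both references as 1 group (Cntn3, Zfp536 and Shc3) and 1 with no filter (Zfp536). For that with all other neurons, 4 became 12 with both references as 1 group, 3 of the 4 among them, and 1 with hemisection replicate 2 added. Apart from thinning and the filter, the cause of these shifts was not tested.

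The 249 genes at least 2-fold apart from DI_Nxph1_Npy became 836 where at least 20 nuclei were required, which left 1 library, and 162 with a pseudocount of 20 CPM. Leaving out 1 library at a time gave 297 to 392, the highest without the uninjured library. A pseudocount of 1 CPM and a minimum of 50 CPM gave 277 and 205. Thinning gave 224, of which 127 were among the 249, with 57 higher in place of 99 and 167 lower in place of 150. With the replicate number as a block within experiment 1, which pairs traced and untraced libraries, the DI_Npy share differed by −5.22 in log2 units (adjusted p = 0.193), a fitted value against 0 nuclei that is no bound. It was not called in any other share setting run. Leaving out each of these libraries gave adjusted p-values from 0.176 to 0.601. Leaving out hemisection replicates gave log2 differences of −0.95 to −0.71.

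Without the uninjured library, a setting added after the data were seen, the comparison with the untraced libraries called 2 genes, Cdh23 and Penk. Leaving out either untraced library leaves no residual degree of freedom, and gene fits without hemisection replicate 1, or at 10 or 20 nuclei per library, were not run. Most genes had few UMIs in 5 to 39 nuclei, so a gene that was not called is not shown to be equal. All DI_Npy nuclei of the uninjured library carry a barcode, so that restriction changed nothing.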

Other observations

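Over the 28 subtypes, the genes whose pooled levels were most like those of Npy were Mtmr10, Ncbp1 and Prodh, with Pearson correlations of 0.652, 0.644 and 0.635. The subtypes share libraries and depth, so these values are a description.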
